A study of Rattus norvegicus with 97 samples.

Results

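The extracellular matrix of the brain and the receptors that anchor cells to it were followed in the nucleus accumbens shell, a ventral striatal region that takes part in reward. The genes were all those whose single symbol in the platform annotation named a collagen chain, a laminin chain, an integrin or 1 of the tenascins Tnc, Tnr and Tnn. These were 80 of the 14217 genes with 1 symbol, and they comprised 41 collagens, 10 laminins, 15 integrin alpha and 7 integrin beta subunits, 3 tenascins and 4 genes with integrin-like names that encode no subunit. The last are the binding proteins Itgb1bp1, Itgb1bp2 and Itgb3bp, and Itgbl1. The 80 genes had 115 probe sets, and each of the 26 genes with several was represented by the probe set that was brightest on average over all arrays.

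RNA came from 97 rats, 1 array each, of 5 pairs of lines that had been selected for drinking much or little alcohol. Each pair is named here with the high-consuming, or preferring, line first: P/NP, HAD1/LAD1, HAD2/LAD2, AA/ANA and sP/sNP. LAD1, sP and sNP had 9 animals each, and the remaining lines had 10. The labels state no treatment, sex or age and no alcohol exposure, and a pair of selected lines also differs by drift, so that each pair is 1 instance of the selection.

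Collagens assemble into fibrils, sheets or membrane-bound proteins, and in the brain they lie mainly in the meninges and around vessels. Laminins and type IV collagens form the basement membrane. Integrins are pairs of an alpha and a beta subunit that bind these ligands and link them to the cytoskeleton, and tenascins are glycoproteins that modulate this adhesion and are made largely by glia.

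Values were log2 RMA signals, so that a difference of 1 is a 2-fold change. Each is given as preferring minus non-preferring line ± its standard error. A gene was called at an adjusted p under 0.05 in limma, with Benjamini-Hochberg adjustment over all 31042 probe sets. Array medians lay between 7.82 and 8.02. The 9 measured markers of medium spiny neurons, the principal cells of the striatum, had mean levels of 10.97 to 14.08. The Gapdh 3' minus 5' difference, which is larger in more degraded or shorter labelled RNA, had medians of 4.65 in HAD1 and 4.94 in LAD1, of 2.88 in HAD2 and 2.87 in LAD2, and of at most 0.44 in the other lines. Levels were therefore not compared between line pairs. In tissue RNA, fewer cells of a type and less RNA per cell cannot be told apart.

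A score from the 50 probe sets that best separated the lines of a pair placed 8 arrays over 0.3 from the end their label names: P 9, NP 9, HAD1 28, LAD1 37, AA 19, ANA 20, sP 4 and sNP 4. A score of 0 marks the non-preferring median and a score of 1 the preferring one. The library labelled HAD1 28 scored 0.00493 and that labelled LAD1 37 scored 0.988, at the opposite ends. AA 19 scored -0.039 and ANA 20 scored 0.93, also at the opposite ends. The mean correlation across probe sets of AA 19 was 0.9949 with the sP arrays against 0.9795 with the others of its own line, and that of ANA 20 was 0.9959 with the sNP arrays against 0.9864, so that both resembled lines of another pair more than their own. They enter every AA/ANA value and every 5-pair average given with all arrays. NP 9 scored 1.05, whereas P 9 at 0.463, sP 4 at 0.399 and sNP 4 at 0.483 lay near the middle. No array was relabelled, and each result is given with these arrays and, where it differs, without them. Since line differences enter that score, gains in calls after leaving them out are no independent evidence.

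Over the average of the 5 pairs, 6 of the 80 genes were called, against 3.08% of all genes. Of these, 5 were higher in the preferring lines (1.56% of all genes were called higher) and 1 was lower (1.52%). The 5 were Col12a1, Tnc, Col24a1, Itgal and Col6a6, and with all arrays each had the same sign in all 5 pairs. Among all genes 0.921% were called on average with 1 sign throughout. With the departing arrays left out, 7 were called against 4.59% of all genes, 6 higher (2.34%) and 1 lower (2.26%), with Col23a1 added at 0.11 ± 0.0339. The error of this average is the spread between animals, and the next paragraphs give the spread between pairs.

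**Figure D1:**
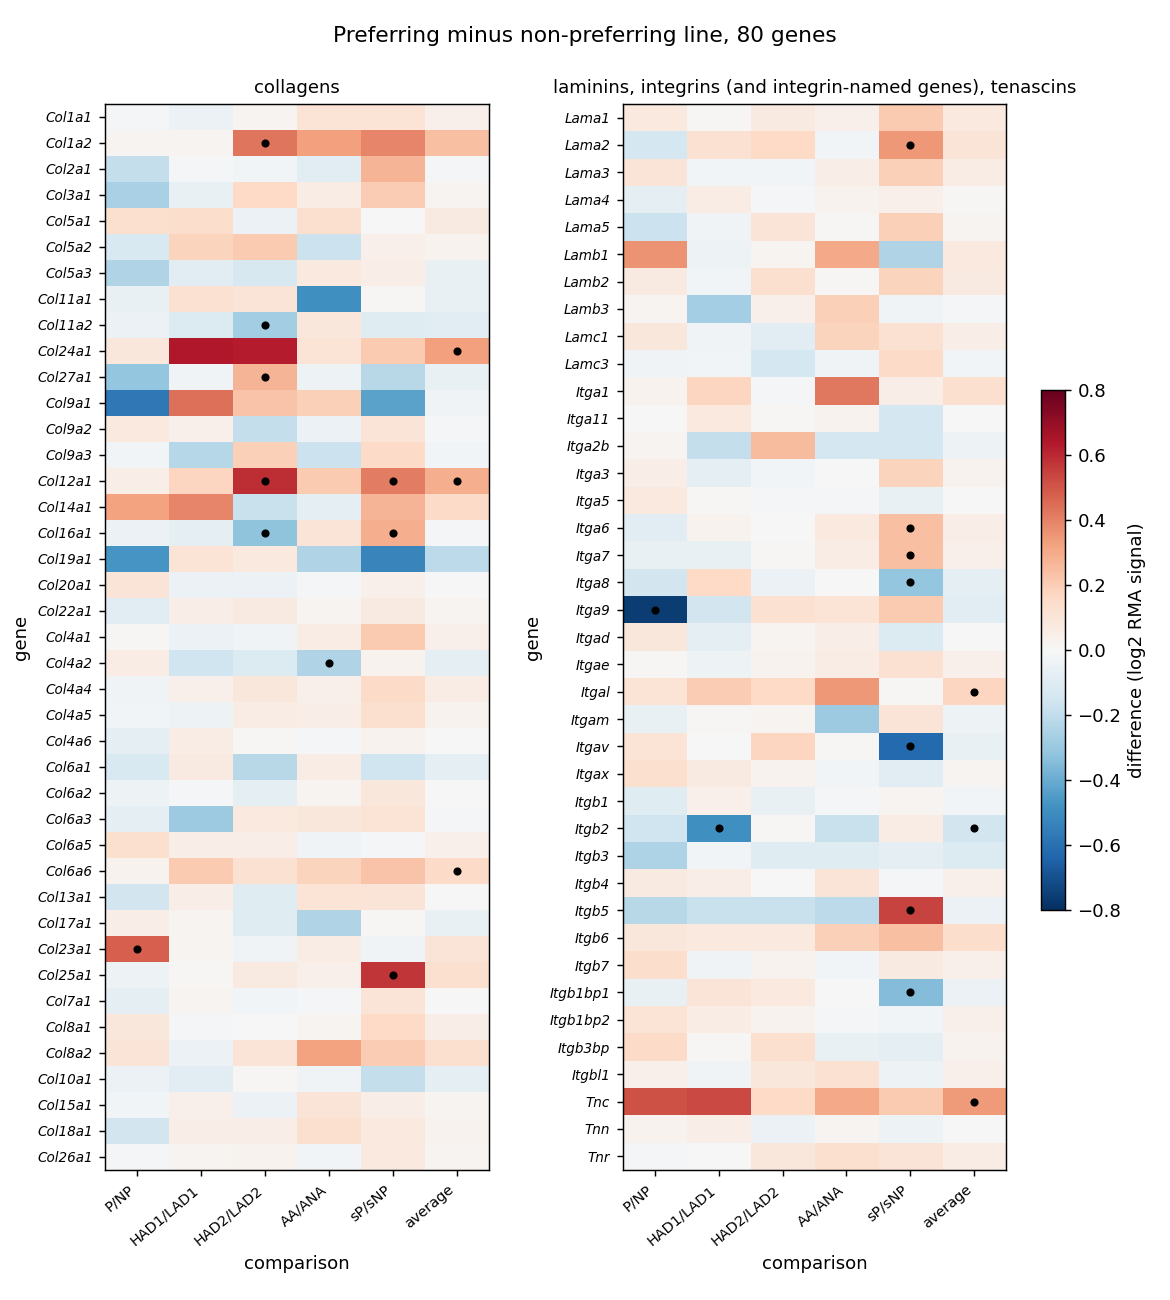
Difference between the preferring and the non-preferring line (log2 RMA signal, colour, red higher in the preferring line) for the 80 genes in rows and the 5 pairs and their average in columns. Black points mark calls at an adjusted p under 0.05. Col12a1, Col24a1 and Tnc are red in every column, whereas most called genes are called in 1 pair.

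Col12a1 encodes a fibril-associated collagen that binds the surface of type I collagen fibrils. In HAD2 it ran from 7.36 to 7.86 (median 7.62), and in LAD2 from 6.75 to 7.42 (median 7.02), so that the lines overlapped only at the edge. In sP it ran from 7.17 to 7.93 (median 7.3), and in sNP from 6.63 to 7.2 (median 7.03). The differences were 0.59 ± 0.0801 (limma, adjusted p = 3.64e-05) in HAD2/LAD2 and 0.41 ± 0.0938 (adjusted p = 0.0144) in sP/sNP, the pairs in which it was called. In HAD1/LAD1 the difference was 0.17 ± 0.082, in AA/ANA 0.21 ± 0.107 and in P/NP 0.05 ± 0.103, none of them called.

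The average for Col12a1 was 0.29 ± 0.0438 (limma, adjusted p = 1.9e-06), and 0.21 (adjusted p = 0.00385) when HAD2/LAD2 was left out. The highest sP array, sP 7, also had the highest mean of the 10 fibroblast markers, at 10.26. With the fibroblast, pericyte and smooth muscle markers as a covariate the sP/sNP difference was 0.3 (adjusted p = 0.0163), and the call remained when sP 7 was left out. The positive sign of Col12a1 in P/NP rested on P 9, at 7.65 against 7.09 for the next highest P array. On P 9 the spiny neuron markers averaged 10.9, in a line whose median was 12.75. They averaged 9.76 on P 5 and 11.21 on P 10, where Col12a1 did not exceed 7.09. The part of these markers in the Col12a1 value of P 9 was not tested. Without the departing arrays the P/NP difference was -0.04 ± 0.0723, and the sP and sNP ranges then met only at the edge, at 7.2. The 5 differences were unequal (limma F test, adjusted p = 0.0161). Col12a1 had 3 probe sets, and the other 2, which are dim at mean levels of 5.49 and 5.2, had average differences of 0.05 and 0, with HAD2/LAD2 differences of 0.05 and -0.02. The change was thus seen with 1 of 3 probe sets.

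Tnc encodes tenascin C, a hexameric glycoprotein made by glia and strongly produced during brain development. In P it ran from 5.82 to 8.59 (median 7.15) and in NP from 5.93 to 7.1 (median 6.48). In HAD1 it ran from 5.84 to 7.08 (median 6.48), and in LAD1 from 5.27 to 7.28 (median 5.84). The highest P array was P 9, and the highest LAD1 array was LAD1 37. All lines overlapped with their partners.

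The Tnc differences were 0.51 ± 0.306 in P/NP, 0.53 ± 0.21 in HAD1/LAD1, 0.16 ± 0.102 in HAD2/LAD2, 0.3 ± 0.143 in AA/ANA and 0.21 ± 0.123 in sP/sNP. None was called alone, and their average was 0.34 ± 0.0915 (limma, adjusted p = 0.0157). Without the departing arrays Tnc was called in HAD1/LAD1 at 0.76 ± 0.155 (adjusted p = 0.00567), the P/NP difference was 0.27 ± 0.281, and the average was 0.35 ± 0.0811 (adjusted p = 0.00184). The average lost its call when P/NP was left out (0.3, adjusted p = 0.0961) or HAD1/LAD1 was left out (0.29, adjusted p = 0.0952). Tnr and Tnn, the other tenascins among the 80 genes, were not called in any pair or on average.

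Col24a1 encodes a minor fibrillar collagen. In HAD1 it ran from 7.41 to 9.37 (median 8.08), and in LAD1 from 6.85 to 8.86 (median 7.54), with LAD1 37 the highest LAD1 array. In HAD2 it ran from 7.51 to 8.81 (median 7.97), and in LAD2 from 6.6 to 8.14 (median 7.3). The lines of both pairs overlapped, and most arrays of the preferring lines lay above the median of their partners.

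The Col24a1 differences were 0.64 ± 0.258 in HAD1/LAD1 and 0.63 ± 0.197 in HAD2/LAD2, against 0.09 ± 0.232 in P/NP, 0.11 ± 0.182 in AA/ANA and 0.21 ± 0.0933 in sP/sNP. None was called alone. The average was 0.33 ± 0.0964 (limma, adjusted p = 0.0299), and 0.39 ± 0.0971 (adjusted p = 0.0057) without the departing arrays. It was 0.26 without HAD1/LAD1 (adjusted p = 0.21) and 0.26 without HAD2/LAD2 (adjusted p = 0.178), so that the call needed both of these pairs. With the mean of fibroblast, pericyte and smooth muscle markers as a covariate, the averages of Col24a1, Itgal and Col6a6 were 0.29, 0.15 and 0.15, close to their size without it, but lost their calls (adjusted p = 0.0935, 0.106 and 0.0782), and 3 genes remained called. With the index of spiny neuron against neighbouring forebrain markers as a covariate, the same 3 genes again lost their calls, at 0.26, 0.14 and 0.13 (adjusted p = 0.0655, 0.0805 and 0.0874). Col12a1 at 0.26 (adjusted p = 3.31e-06) and Tnc at 0.37 (adjusted p = 0.00596) kept theirs under that index.

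**Figure D2:**
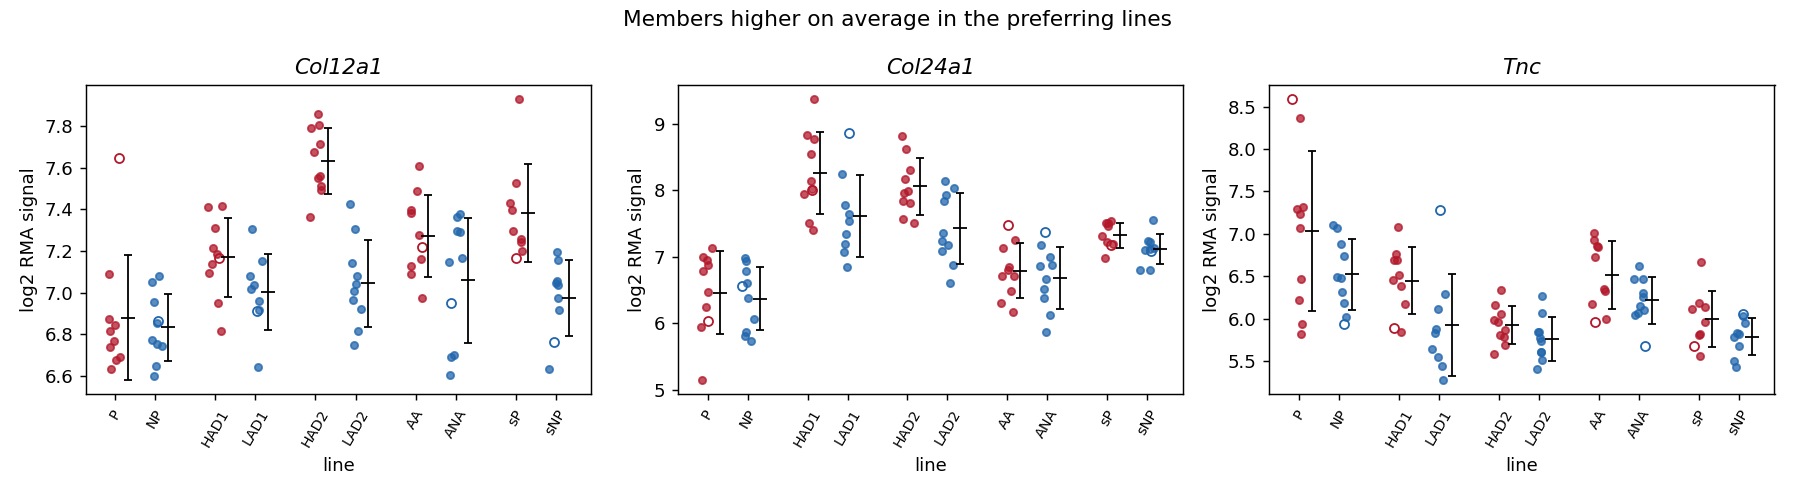
Log2 RMA signal (vertical axis) of Col12a1, Col24a1 and Tnc on each array, by line (red preferring, blue non-preferring); open circles are the 8 departing arrays, and bars give the mean ± SD of all arrays of the line. The Col12a1 arrays of HAD2 lie between 7.36 and 7.86 and those of LAD2 between 6.75 and 7.42, while P 9 stands apart in P at 7.65.

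The 300 bases around the transcription start of Col24a1 and Tnc are shown because these genes had positive differences in all 5 pairs, and those of Itga9 and Itgav because they had the largest single-pair differences among the integrins. The sequences are from RefSeq (build GRCr8), 5′ to 3′ on the gene's strand, from 250 bases before to 50 bases after the start. Capitals mark every match on either strand to 4 motifs. These were the cyclic AMP response element, searched as TGACGTCA, the TATA box, searched as TATAAA, its variant spelled TATATAA, which can overlap the former, and the GC box, searched as GGGCGG. Col24a1 lies at chr2:236872384-236872683 (plus strand), Tnc at chr5:82476082-82476381 (minus strand), Itga9 at chr8:127185039-127185338 (plus strand) and Itgav at chr3:89245132-89245431 (plus strand).
Col24a1: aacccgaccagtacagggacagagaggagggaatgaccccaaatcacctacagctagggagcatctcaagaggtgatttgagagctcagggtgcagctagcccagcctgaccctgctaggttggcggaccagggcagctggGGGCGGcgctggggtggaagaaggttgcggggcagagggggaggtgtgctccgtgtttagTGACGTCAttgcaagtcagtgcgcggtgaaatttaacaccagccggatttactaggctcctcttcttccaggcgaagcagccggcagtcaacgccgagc
Tnc: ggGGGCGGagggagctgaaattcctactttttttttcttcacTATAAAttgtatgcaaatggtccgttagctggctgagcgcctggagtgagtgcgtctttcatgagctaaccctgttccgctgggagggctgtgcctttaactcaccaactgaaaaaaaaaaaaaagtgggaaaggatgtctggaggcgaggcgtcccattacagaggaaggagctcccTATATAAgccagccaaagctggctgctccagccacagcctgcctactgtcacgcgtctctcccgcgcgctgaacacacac
Itga9: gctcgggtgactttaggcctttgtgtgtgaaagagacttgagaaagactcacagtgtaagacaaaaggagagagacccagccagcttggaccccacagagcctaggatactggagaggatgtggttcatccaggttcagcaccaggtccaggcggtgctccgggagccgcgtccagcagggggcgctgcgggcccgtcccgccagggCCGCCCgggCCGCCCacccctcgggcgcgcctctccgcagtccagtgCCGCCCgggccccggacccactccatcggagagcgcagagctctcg
Itgav: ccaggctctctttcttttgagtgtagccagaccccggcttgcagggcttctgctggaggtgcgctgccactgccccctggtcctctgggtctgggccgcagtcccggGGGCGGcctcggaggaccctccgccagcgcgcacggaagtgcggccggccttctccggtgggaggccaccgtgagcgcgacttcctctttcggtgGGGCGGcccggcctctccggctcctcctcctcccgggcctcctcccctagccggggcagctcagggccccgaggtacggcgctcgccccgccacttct

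The Col24a1 window, the first listed of 3 in the table, holds TGACGTCA, which 1.83% of the 33469 windows in the table hold, beside 4 of the 66 windows of these genes. The Tnc window holds TATATAA 30 bases before the start (3.93% of all windows) and TATAAA farther upstream (14.2%). The GC box was found in all 4 printed windows, in 33.1% of all windows and in 34 of the 66. Of the 80 genes, 63 matched the table. These are matches of letters and do not show that a factor binds there.

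Itgal and Col6a6 had smaller differences. Itgal encodes the alpha subunit of a leukocyte integrin, and its average was 0.17 ± 0.0495 (limma, adjusted p = 0.039), with single-pair values from 0.01 in sP/sNP to 0.35 in AA/ANA. Itgb2, which encodes the beta subunit that pairs with Itgal and also marks microglia, was lower on average by -0.15 ± 0.0387 (adjusted p = 0.00881). Col6a6, a type VI collagen chain with a dim probe set, had an average of 0.15 ± 0.0464 (adjusted p = 0.0471), and leaving out P 9 ended both this call (adjusted p = 0.0501) and that of Itgal (adjusted p = 0.0522). The Itgal call was also lost without HAD1/LAD1 (adjusted p = 0.103), HAD2/LAD2 (0.072) or AA/ANA (0.3). That of Col6a6 was lost without HAD1/LAD1 (adjusted p = 0.148), HAD2/LAD2 (0.0616), AA/ANA (0.125) or sP/sNP (0.191). Beside Itgb2, 3 of 8 microglial markers, Cx3cr1, C1qa and Ctss, were called lower on average. Of the 10 fibroblast markers 1 was called, the proteoglycan Dcn, higher by 0.23 ± 0.0649, and the median of that list was 0.06. The part of microglia and fibroblasts in these results was not tested.

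Across the 5 pairs, 9 of the 80 genes had 1 sign throughout, which is 11.2% against 6.37% of all genes. Higher in every preferring line were Col12a1, Col24a1, Tnc, Itgal, Col6a6, Col1a2, Itgb6 and Lama1, and lower in every one was Itgb3, a subunit of platelet and vascular integrins. A further 13 genes were higher in 4 pairs, 7 were lower in 4, 37 were higher in 3 and 14 were higher in 2. When the departing arrays were left out, 6 genes had 1 sign, against 5.43% of all genes. Col12a1 and Col1a2 were then higher in 4 pairs and Lama1 in 3.

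With the pair as the unit, so that 5 differences of line means were the replicates, limma called none of the 80 genes and none of all 14217. At an unadjusted p under 0.05 there were 9 of the 80 (11.2%) and 525 of all genes (3.69%). The unadjusted p was 0.00182 for Tnc, 0.0115 for Col12a1 and 0.0171 for Col24a1, and the lowest adjusted p among the 80 was 0.948. The 80 genes, and these among them, were chosen with earlier results of these data known. Their unadjusted values are therefore no independent evidence. Among all genes the lowest adjusted p was 0.778, so this test on 5 differences called no gene at all and cannot single out these genes. The calls on average hold against the spread between animals and were not shown against the spread between pairs.

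**Figure D3:**
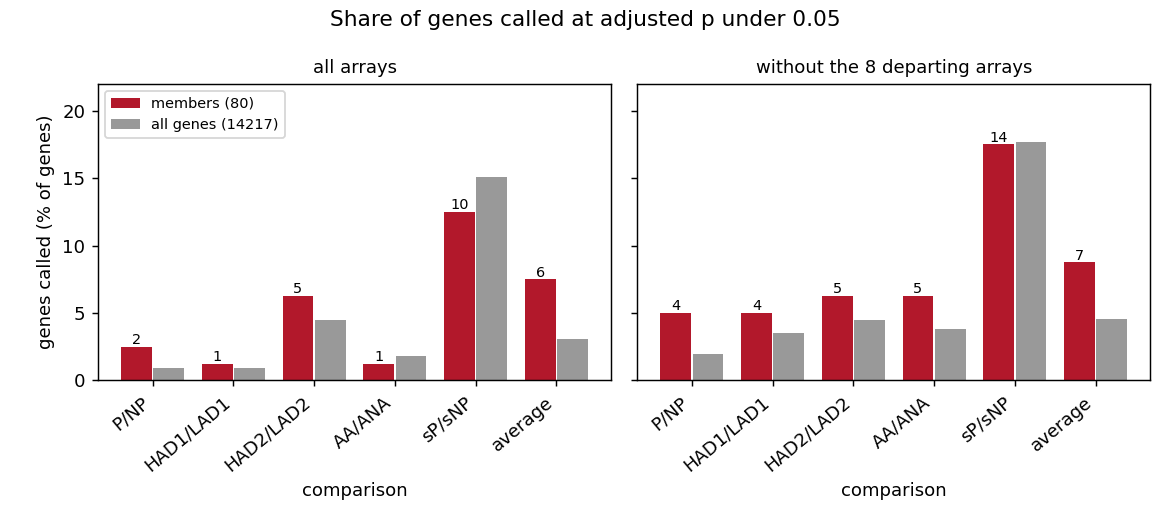
Percent of genes called at an adjusted p under 0.05 in limma (vertical axis) among the 80 genes (red, with the number called) and among all 14217 genes (grey), for the 5 pairs and their average, with all arrays (left) and without the 8 departing arrays (right; HAD2/LAD2 has none). In sP/sNP the share of 10 of 80 genes lies below that of all genes, 15.1%.

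In P/NP, 2 of the 80 genes were called, against 0.935% of all genes. Itga9 encodes an alpha subunit that forms a receptor for tenascin C and other ligands. Its signal ran from 5.26 to 6.2 (median 5.5) in P and from 6.07 to 6.6 (median 6.36) in NP, and only the upper P arrays reached the NP range. The difference was -0.76 ± 0.112 (limma, adjusted p = 0.00159), the largest of any integrin in any pair, and it remained called in all 20 fits that left out 1 array. Without the departing arrays it was -0.82 ± 0.117 and the lines did not overlap. The probe set is itself rather dim, at a mean level of 6.1 over all arrays, close to the 25th percentile of the tested probe sets, 6.08.

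In the other pairs Itga9 differed by -0.15 ± 0.0769 in HAD1/LAD1, 0.12 ± 0.0604 in HAD2/LAD2, 0.11 ± 0.0667 in AA/ANA and 0.21 ± 0.0752 in sP/sNP. The 5 differences were unequal (limma F test, adjusted p = 5.64e-11). Its second probe set, at a mean level of 5.13, differed by -0.06 in P/NP, so the 2 probe sets disagreed. Itga9 was, without the departing arrays, also called in sP/sNP, in the opposite direction, at 0.26 ± 0.0766 (adjusted p = 0.0343).

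Col23a1 encodes a transmembrane collagen. It ran from 6.52 to 7.11 (median 6.76) in P and from 5.98 to 7.05 (median 6.21) in NP, where the highest array was NP 9. The difference was 0.48 ± 0.114 (limma, adjusted p = 0.0455), and it was 0.58 ± 0.0906 (adjusted p = 0.000812) without the departing arrays. The call with all arrays is marginal, since it remained in 4 of 20 fits that left out 1 array, those without P 7, NP 8, P 9 or NP 9. There were 4 genes called without the departing arrays, against 1.96% of all genes, with Col3a1, a fibrillar chain, at -0.36 ± 0.0881 and Itgb3 at -0.32 ± 0.0727 added. Of the 10 fibroblast markers 5 were higher and 5 lower, with a median difference of 0, and 1 was called, Ogn at -1.11 ± 0.227. All 8 microglial markers were nominally lower, with a median of -0.3, and 1 was called, Laptm5 at -0.33 ± 0.0793. Their part was not tested.

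In HAD1/LAD1, 1 of the 80 genes was called, against 0.95% of all genes. Itgb2 ran from 7.49 to 8.36 (median 7.58) in HAD1 and from 7.69 to 8.51 (median 8.24) in LAD1. The highest HAD1 array was HAD1 28 and the lowest LAD1 array was LAD1 37. The difference was -0.49 ± 0.114 (limma, adjusted p = 0.0372), and without these arrays it was -0.62 ± 0.0785 (adjusted p = 3.43e-05) with no overlap. None of the 8 microglial markers was called in this pair, though 6 were nominally lower and 2 higher, with a median of -0.1. Their part was not tested.

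The Itgb2 call remained in 3 of 19 fits that left out 1 array, those without HAD1 28, LAD1 37 or LAD1 38. Its 5 differences were unequal (limma F test, adjusted p = 0.00426), with -0.16 ± 0.0806 in P/NP, -0.18 ± 0.0828 in AA/ANA, 0.01 ± 0.0693 in HAD2/LAD2 and 0.06 ± 0.0631 in sP/sNP. In HAD1/LAD1 4 of the 80 genes were called without the departing arrays, against 3.5% of all genes. Besides Itgb2 and Tnc these were Col6a3, a type VI collagen chain, at -0.43 ± 0.1 and the platelet integrin subunit Itga2b at -0.24 ± 0.0681.

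**Figure D4:**
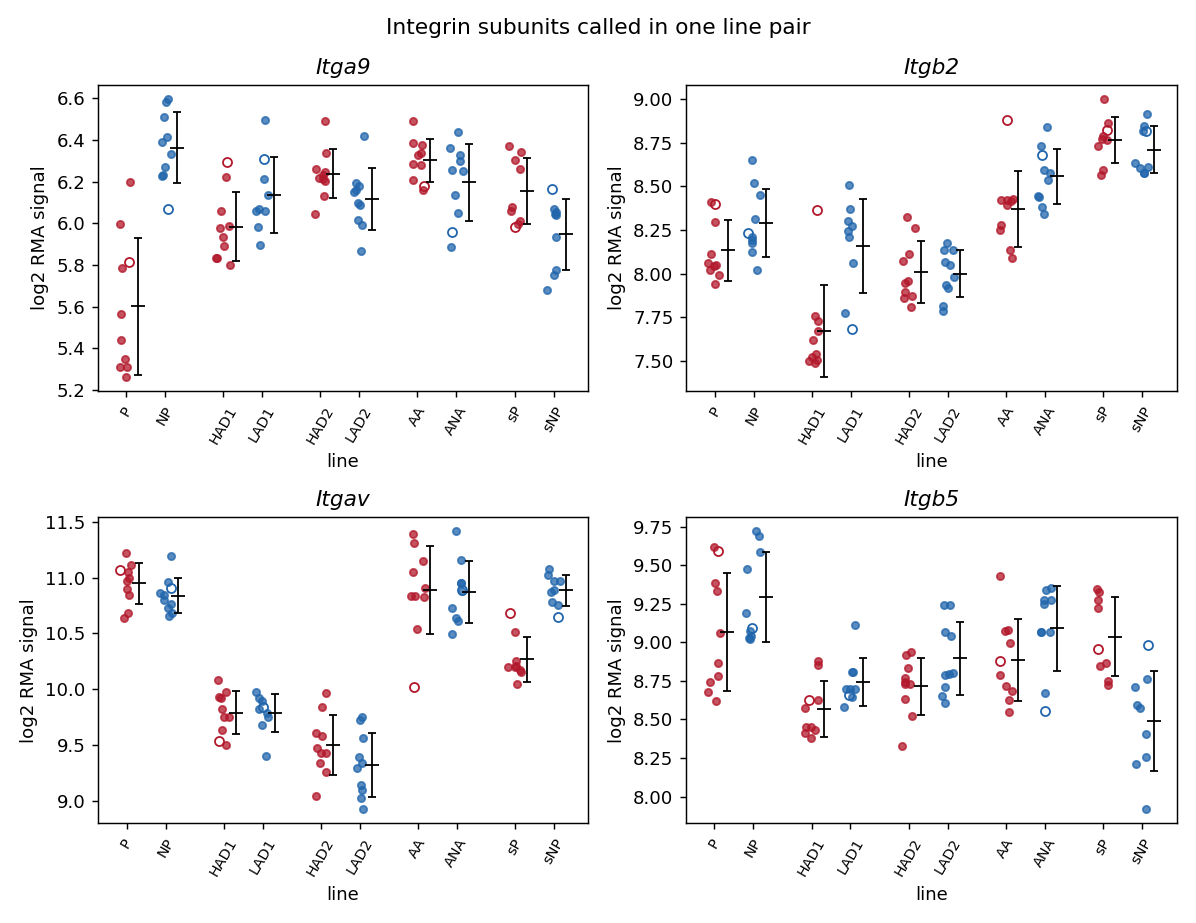
Log2 RMA signal (vertical axis) of 4 integrin subunits on each array, by line (red preferring, blue non-preferring); open circles are the 8 departing arrays, and bars give the mean ± SD of all arrays of the line. The mean of P lies below that of NP for Itga9, that of HAD1 below LAD1 for Itgb2, and that of sP below sNP for Itgav but above it for Itgb5.

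In HAD2/LAD2, 5 of the 80 genes (6.25%) were called, against 4.47% of all genes. All 5 are collagens, as are 41 of the 80 genes. A share this near that of all genes is not a result about these genes as a group. Higher were 3 (1.79% of all genes were called higher) and lower were 2 (2.68%). Besides Col12a1, the higher genes were Col1a2, a chain of type I collagen, and Col27a1, a fibrillar collagen of cartilage. The lower genes were Col11a2, a chain of fibrillar type XI collagen, and Col16a1, another fibril-associated collagen. None of the departing arrays belonged to this pair, and all 5 remained called in each of the 20 fits that left out 1 array.

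Col1a2 ran from 6.9 to 7.49 (median 7.22) in HAD2 and from 6.48 to 7.14 (median 6.81) in LAD2, with a difference of 0.43 ± 0.0845 (limma, adjusted p = 0.00234). Its second probe set differed by 0.23 (adjusted p = 0.216). In sP/sNP the Col1a2 difference was similar in size, at 0.39, but its standard error was 0.416 because sP 7 reached 10.74 and sNP 6 reached 9.75. On these arrays the 10 fibroblast markers averaged 10.26 and 9.32, against medians of 8.35 in sP and 7.96 in sNP.

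Col27a1 ran from 8.31 to 8.65 (median 8.45) in HAD2 and from 7.92 to 8.41 (median 8.21) in LAD2, a difference of 0.27 ± 0.0646 (limma, adjusted p = 0.0135). Its differences in P/NP and sP/sNP were -0.31 ± 0.158 and -0.22 ± 0.0908, and the 5 were unequal (F test, adjusted p = 0.0381). Col11a2 ran from 8.85 to 9.49 in HAD2 and from 9.24 to 9.67 in LAD2, a difference of -0.28 ± 0.0659 (adjusted p = 0.0123). Col16a1 ran from 8.58 to 9.01 in HAD2 and from 8.84 to 9.6 in LAD2, a difference of -0.32 ± 0.0804 (adjusted p = 0.0207).

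Beside the collagen calls of HAD2/LAD2, 3 of 10 pericyte and smooth muscle markers were called higher, Tagln at 0.68 ± 0.184, Myh11 at 0.49 ± 0.134 and Abcc9 at 0.6 ± 0.0495. The mean of this marker list ran from 7.31 to 7.76 in HAD2 and from 7.26 to 7.54 in LAD2. None of the 10 fibroblast markers was called, and 5 of 7 oligodendrocyte markers were called lower. Of 9 endothelial markers 1 was called higher and 3 lower (median -0.2), and of 8 microglial markers 1 was called higher and 2 lower (median -0.1). Their part was not tested. When all 10 lines shared 1 estimate of the spread, 3 of the 5 collagens were called.

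In AA/ANA, 1 of the 80 genes was called, against 1.84% of all genes. Col4a2 encodes a basement membrane chain that assembles with Col4a1, its neighbour in the genome. It ran from 8.45 to 8.72 (median 8.56) in AA and from 8.72 to 8.98 (median 8.78) in ANA, and the ranges met only at the edge, where the highest AA array was AA 19. The difference was -0.24 ± 0.0481 (limma, adjusted p = 0.00516). Col4a1 differed by 0.06 and was not called.

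Without AA 19 and ANA 20 the Col4a2 difference was -0.27 ± 0.0479 with no overlap, and the call remained in all 20 fits that left out 1 array. The 5 differences were unequal (limma F test, adjusted p = 0.0472). Without these arrays 5 genes were called against 3.85% of all genes. Added were the laminin chains Lamb1 at 0.36 ± 0.0904 and Lamc1 at 0.21 ± 0.0475, the myeloid integrin subunit Itgam at -0.33 ± 0.0812 and the transmembrane collagen Col17a1 at -0.25 ± 0.0619. Among non-member matrix genes, the collagen-modifying P3h4 was called higher at 0.75 ± 0.108.

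In sP/sNP, 10 of the 80 genes were called, below the 15.1% of all genes, with 7 higher (8.76%) and 3 lower (6.39%). Without sP 4 and sNP 4 there were 14 against 17.7%. A share this near the background is not a result about these genes as a group. In this pair 8 of the 9 medium spiny neuron markers were called lower, with a median difference of -1. Their mean per array ran from 10.5 to 12.66 in sP and from 11.97 to 12.91 in sNP.

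Itgav encodes the alpha subunit of several integrins that bind the RGD motif, one of them with Itgb5. It ran from 10.04 to 10.68 (median 10.2) in sP and from 10.64 to 11.07 (median 10.89) in sNP. The highest sP and the lowest sNP arrays were sP 4 and sNP 4, and without them the lines did not overlap. The difference was -0.62 ± 0.0782 (limma, adjusted p = 6.49e-05), and -0.7 ± 0.0629 without them. In the other pairs it lay between 0 and 0.17, and the 5 were unequal (F test, adjusted p = 0.000284). The other probe sets of Itgav, at mean levels of 6.97 and 5.87, differed by -0.03 and -0.16 and were not called.

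Itgb5 moved the opposite way in sP/sNP, from 8.72 to 9.35 (median 8.96) in sP against 7.92 to 8.98 (median 8.58) in sNP. The difference was 0.54 ± 0.128 (limma, adjusted p = 0.0168), and a second probe set was also called, at 0.48 (adjusted p = 0.0441), whereas the last of the 3 differed by 0.05. In each of the other 4 pairs Itgb5 was nominally lower in the preferring line, at -0.22 ± 0.145, -0.18 ± 0.0748, -0.18 ± 0.0899 and -0.21 ± 0.115, none of them called. The 5 differences were unequal (F test, adjusted p = 0.000696).

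The other calls of sP/sNP were Itga8, a receptor subunit for nephronectin, at -0.31 ± 0.0734 (limma, adjusted p = 0.0166) and the laminin receptor subunit Itga7 at 0.24 ± 0.066 (adjusted p = 0.0301). Col25a1, a transmembrane collagen of neurons, differed by 0.57 ± 0.164 (adjusted p = 0.0356) and Col16a1 by 0.29 ± 0.0899 (adjusted p = 0.0419). Itgb1bp1, which binds the tail of Itgb1, differed by -0.35 ± 0.107 (adjusted p = 0.039). Itga6, another laminin receptor subunit, at 0.24 ± 0.079, and the laminin chain Lama2, at 0.35 ± 0.113, passed narrowly and lost their calls without the departing arrays. Over the 18 fits that left out 1 array, Itgav, Col12a1, Itga8 and Itgb5 remained called in all, Itga7 in 12, Col25a1 in 10, Itgb1bp1 and Col16a1 in 8 each, and Itga6 and Lama2 in 5 each. Col16a1 had called differences of opposite sign in sP/sNP and HAD2/LAD2, and its 5 differences were unequal (F test, adjusted p = 0.015).

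With an index of spiny neuron markers minus markers of neighbouring basal forebrain regions as a covariate, 1 of the 10 calls remained, that of Itgav at -0.51 ± 0.0908 (limma, adjusted p = 0.00492). Col12a1 at 0.38 and Itga8 at -0.28 kept most of their size but lost their calls (adjusted p = 0.232 and 0.281). Itgb5 was 0.17, Col25a1 0.04, Col16a1 0.06, Lama2 0.04, Itga6 0.01 and Itgb1bp1 -0.04 under this covariate. The index itself differs between the lines of this pair, so that its part and that of the line cannot be told apart.

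**Figure D5:**
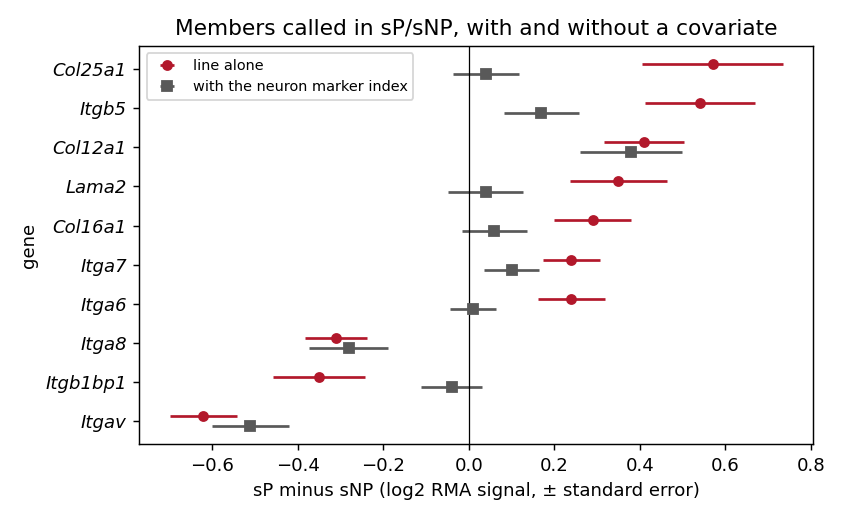
Difference between sP and sNP (log2 RMA signal, horizontal axis, bars are ± 1 standard error) for the 10 called genes, with the line alone (red circles) and with the index of neuron markers added to the fit (grey squares). Itgav, Col12a1 and Itga8 keep their position, whereas Col25a1, Lama2, Itga6, Col16a1 and Itgb1bp1 move to near 0.

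By family, the F test of unequal differences called 11 of the 80 genes, against 11.8% of all genes. These were 5 integrin or laminin genes (Itga9, Itgav, Itgb5, Itgb2 and Lamb1) and 6 collagens (Col23a1, Col16a1, Col12a1, Col17a1, Col27a1 and Col4a2). The fibrillar collagens had median differences from -0.06 in P/NP to 0.1 in HAD2/LAD2, and the 10 laminins from -0.02 in HAD1/LAD1 to 0.16 in sP/sNP, where the median of all genes was 0.01. With all arrays, Lama2 in sP/sNP was the single laminin call in any pair or on average. The median over all 80 genes lay between -0.01 and 0.07.

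Some of the 80 genes are neighbours in the genome, with 7 neighbouring pairs in the gene order of RefSeq GRCr8. Col9a1 and Col19a1, fibril-associated collagens, lie next to each other and held the largest differences of any of these pairs. In the remaining pairs of neighbours no difference was larger in size than that of Itgam in AA/ANA, at -0.29. Some neighbours had opposite signs, as Col6a1 at -0.16 and Col6a2 at 0.09 in sP/sNP. In P/NP, Col9a1 and Col19a1 differed by -0.57 ± 0.327 and -0.47 ± 0.146, and in sP/sNP by -0.43 ± 0.222 and -0.53 ± 0.204. None of these was called. In HAD1/LAD1, Col9a1 differed by 0.44 ± 0.262 and Col19a1 by 0.11 ± 0.129, and in HAD2/LAD2 by 0.23 ± 0.258 and 0.08 ± 0.107. In AA/ANA their signs were opposite, at 0.19 ± 0.222 and -0.24 ± 0.203.

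Of 140 other measured genes for matrix glycoproteins, proteoglycans, collagen processing, integrin partners and proteases, called higher or lower were 0 and 3 in P/NP, 0 and 3 in HAD1/LAD1, 0 and 5 in HAD2/LAD2, 2 and 0 in AA/ANA, and 25 and 7 in sP/sNP. Of all genes, 0.935%, 0.95%, 4.47%, 1.84% and 15.1% were called in these pairs, and of the 140 genes 3.57% were called in HAD2/LAD2, 1.43% in AA/ANA and 22.9% in sP/sNP. Over the average of the 5 pairs 2.86% of the 140 genes were called, against 3.08% of all genes. Called higher were 2, Dcn and P3h4, and lower 2, Vwf of endothelium at -0.23 ± 0.0426 and the collagen-cutting protease Mmp2 at -0.13 ± 0.0393. The dystroglycan-associated Sgcb was lower by -3.14 ± 0.174 in HAD2/LAD2 and by -1.08 ± 0.108 in sP/sNP. It was not lower throughout, since the lowest 5-pair average among the integrin partners, Sgcb included, was -0.51. In HAD1/LAD1 the differences of that list reached 1.83, and none was called higher. The sP/sNP calls included Sparc at 0.57 ± 0.142 and Hapln4 at 1.16 ± 0.34 among the higher, and Hapln1 at -0.6 ± 0.154 among the lower.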

How the data were processed

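RNA of 97 nucleus accumbens shells was hybridised to 1 rat 3' expression array each; per the labels' protocols, 25 ng of total RNA went through 2 amplification cycles. The deposited values are log2 signals, which per the submitters' processing notes the authors made with RMA (version not given in the sources used here). They were used as deposited. Of 31099 probe sets, 57 controls were left out. Gene symbols are those of the platform annotation. Lines were compared in limma 3.58.1 (R 4.3.3; lmFit and eBayes, two-sided), each pair in its own fit, with 1 joint fit for the average and the F test; this was tested on simulated data. The members, gene lists, score limit and alternatives were chosen with earlier results of these data known. Named were Col12a1, Col24a1 and Tnc, up to 8 called genes a pair, and genes called on average with 1 sign; others named by value were chosen after their values were seen. Averages without 1 pair, without P 9 and with the spiny neuron index were added after seeing the data. The number of arrays limits the precision. Animal numbers shared in P/NP and sP/sNP matched only some of the arrays, so no pairing was used in the main fits. A protein sequence table was not used here, and Col12a1's promoter was not analysed here.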

Additional observations from a re-analysis of the deposited data

Results flagged for a closer look

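An array far from the others of its line was found in 4 of 84 gene and line groups tested, and chance alone flags about 1 in 20. These were Itgb2 in HAD1 28, at 8.36 against 7.76 for the nearest array, Col12a1 in P 9, at 7.65 against 7.09, Col12a1 in sP 7, at 7.93 against 7.53, and Itgal in HAD2 7, at 6.88 against 6.58. HAD1 28 and P 9 also departed from their labels.

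The 5 differences between lines were unequal by the limma F test for 9 of the named genes. The adjusted p was 5.64e-11 for Itga9, 0.000284 for Itgav, 0.000696 for Itgb5, 0.000898 for Col23a1, 0.00426 for Itgb2, 0.015 for Col16a1, 0.0161 for Col12a1, 0.0381 for Col27a1 and 0.0472 for Col4a2.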

How the results depend on the processing

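The counts of members called moved by over 1.5 times as follows. In P/NP (2) there were 4 without the departing arrays, 5 with the spiny neuron index as a covariate, 1 with the Gapdh 3' minus 5' difference as a covariate and 1 with the replicate block. In HAD1/LAD1 (1) there were 4 without the departing arrays. In HAD2/LAD2 (5) there were 3 when all lines shared 1 spread. In AA/ANA (1) there were 2 with a shared spread, 5 without the departing arrays, 2 with the meningeal and mural marker covariate, and 3 with either the spiny or the Gapdh covariate. In sP/sNP (10) there were 3 with the meningeal and mural, 1 with the spiny and 3 with the Gapdh covariate. The average (6) fell to 3 with the meningeal and mural covariate. After seeing the data, averages over 4 pairs were added, and leaving out HAD1/LAD1 gave 2. Leaving out 1 array gave 1 to 2 in P/NP, 0 to 3 in HAD1/LAD1, 5 to 6 in HAD2/LAD2, 1 to 4 in AA/ANA and 4 to 15 in sP/sNP. The count was 2 without ANA 12, ANA 18 or AA 19 and 4 without ANA 20. In sP/sNP it was 4 without sNP 1, sP 2, sNP 3, sP 5, sP 9 or sNP 9, 5 without sNP 5 or sP 8 and 6 without sNP 7, the cause of which was not tested. Leaving out 1 array, Col12a1 in P/NP lay between -0.04 (without P 9) and 0.07, and it was -0.04 without P 9 and NP 9. Over the non-omission alternatives, single named genes kept their direction and side of the threshold in 296 cases and their direction alone in 48, passed newly in 2 and reversed in 1. The sP/sNP count stayed within 1.5 times under the replicate block. Same-numbered animals correlated from -0.591 to 0.774 (median 0.335) in P/NP and from -0.22 to 0.56 (median 0.108) in sP/sNP. In P/NP 4 of 10 and in sP/sNP 2 of 9 were best matched to their own number. The numbers thus matched some arrays and not others, and whether they mark a shared block was not tested.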
